A study of Mus musculus with 6 samples.

Results

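The heme biosynthesis genes examined here were Alas1, Alas2, Slc25a38, Alad, Uros, Urod, Cpox, Ppox and Fech. These 9 genes were chosen by name, as genes of enzymes of the pathway and of the carrier that brings in its amino acid, and the rule used no measured value, although the choice was made with earlier results of these data known. The set does not include every enzyme of the pathway. All 9 were found among the 37991 genes of the count table, and all 9 were among the 19480 genes that passed the filter on low counts and were tested. RNA was sequenced from bone endothelial cells (BECs) of 12-weeks mice of the strain c57/Bl6, in 3 female and 3 male libraries. According to the sample labels, the cells came freshly from the tibia and were sorted by endomucin, a surface protein of bone vessels. The paper's methods instead describe crushed tibiae and femurs and capture on beads coated with an endomucin antibody. They add that libraries were made from the 3 samples of each set with the best RNA quality. No genotype or treatment separates the groups, so the single comparison was males against females. The labels number the replicates of each sex but do not say whether a library came from one mouse, so the p-values measure the spread between these samples, which may be partly technical.

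Heme is the iron-containing ring that carries oxygen in haemoglobin and electrons in cytochromes. Its synthesis starts in the mitochondrion with the joining of glycine and succinyl-CoA, runs through the cytosol, and returns to the mitochondrion, where iron is inserted. All cells need heme, but developing red cells of the bone marrow make by far the most of it, and they use their own form of the first enzyme.

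Total counts were between 47678806 and 58325745 per library, so that 3 counts, taken as the floor, equalled 0.0514 to 0.0629 CPM, counts scaled to library size. The CPM values below were scaled by TMM, a correction for differences in library composition. Endothelial transcripts were present but low: the sum over 18 endothelial markers was 383 to 538 CPM in females and 233 to 343 CPM in males, and Emcn, the gene of endomucin, had a mean of 6.43 CPM. The sum over 14 neutrophil markers was 19248 to 23531 CPM in females and 32661 to 44571 CPM in males. For 7 B cell markers it was 2773 to 3164 CPM in females and 2778 to 3211 CPM in males. The 4 adult globin genes together held 11818 to 16948 CPM in females and 18085 to 26486 CPM in males. The sum over 15 other erythroid markers was 673 to 1076 CPM in females and 661 to 1223 CPM in males. No marker of these lists was at 0 in any library. The part that other cells had in the levels below was not tested, and in such a mixture fewer cells of a type and less RNA per cell cannot be told apart.

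The first enzyme, 5-aminolevulinate synthase, exists in a housekeeping form, Alas1, and an erythroid form, Alas2. Alas2 lies on the X chromosome (GRCm39, 149330371 to 149353634, plus strand) and Alas1 on chromosome 9 (106110642 to 106135734, minus strand). Promoter sequences of both are shown because the erythroid factor GATA1 is known to bind GATA motifs and KLF1 to bind CACCC motifs in genes of red cells. The 250 bases before each start site of the members were taken from RefSeq on GRCm38.p6 and searched on both strands for the motifs GATAA, which reads TTATC when it lies on the opposite strand, and CACCC, which then reads GGGTG. RefSeq windows were found for 8 of the 9 genes, 11 windows in all. GATAA occurred in 3 of the 11, those of Alas2, Cpox and the second listed start of Uros, against 22.6% of all 32851 RefSeq windows of the same length. CACCC occurred in 6 of the 11, in 5 genes, against 52% of all windows. The 3 windows with GATAA, and that of the first listed start of Alas1 as the housekeeping form, read as follows from 5′ to 3′ on the strand of the gene, with the matches in capitals. They lie at chrX:150547167-150547416 on the plus strand for Alas2, chr16:58669958-58670207 on the plus strand for Cpox, chr7:133702501-133702750 on the minus strand for Uros and chr9:106247955-106248204 on the minus strand for Alas1.
Alas2: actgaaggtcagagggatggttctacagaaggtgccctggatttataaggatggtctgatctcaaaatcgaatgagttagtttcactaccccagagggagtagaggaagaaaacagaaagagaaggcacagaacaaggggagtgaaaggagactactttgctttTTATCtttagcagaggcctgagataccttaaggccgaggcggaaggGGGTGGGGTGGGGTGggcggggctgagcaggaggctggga
Cpox: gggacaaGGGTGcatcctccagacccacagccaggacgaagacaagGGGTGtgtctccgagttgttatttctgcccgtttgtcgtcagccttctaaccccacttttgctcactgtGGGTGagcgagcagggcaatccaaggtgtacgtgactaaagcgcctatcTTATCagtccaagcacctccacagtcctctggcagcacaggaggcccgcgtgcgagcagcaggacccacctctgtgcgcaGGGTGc
Uros, second start: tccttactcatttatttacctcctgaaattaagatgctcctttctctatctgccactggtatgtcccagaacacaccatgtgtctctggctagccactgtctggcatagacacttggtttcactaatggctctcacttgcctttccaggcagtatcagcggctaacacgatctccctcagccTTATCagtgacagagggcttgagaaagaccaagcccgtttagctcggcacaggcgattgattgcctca
Alas1, first start: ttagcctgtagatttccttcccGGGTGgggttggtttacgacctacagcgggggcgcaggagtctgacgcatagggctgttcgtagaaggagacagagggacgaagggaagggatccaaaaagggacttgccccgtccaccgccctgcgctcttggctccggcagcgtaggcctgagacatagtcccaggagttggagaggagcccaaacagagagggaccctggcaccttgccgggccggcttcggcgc
In the Alas2 window the GATAA match began at position -86 from the start and 3 adjacent CACCC matches began at -40, -35 and -30. In the Cpox window a GATAA match also began at -86, with CACCC at -243, -204, -135 and -6. The Uros window held GATAA at -68 and no CACCC, and the Alas1 window held 1 CACCC at -228 and no GATAA. No match overlapped a match of the other motif. A match describes the letters only and shows no binding.

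Alas2 had the highest level per kilobase of transcript in every library, as described further on. In females it had 81.8, 92.8 and 99.9 CPM (replicates 1, 2 and 3), and in males 175, 115 and 97.8 CPM. Male replicate 1 stood above the other 5 libraries, while male replicate 3 lay below female replicate 3, so the sexes overlapped. Females averaged 91.5 ± 9.11 CPM (SD, n = 3), and males averaged 129 ± 40.8 CPM (SD, n = 3). In the comparison of males over females with edgeR's quasi-likelihood test, this was a log2 fold change of 0.50 (SE 0.197) or 1.41-fold (95% confidence interval 1.04 to 1.91), with an unadjusted p of 0.0292 and a Benjamini-Hochberg adjusted p of 0.441 in edgeR over all genes tested. Without male replicate 1 the log2 fold change was 0.21 (edgeR, adjusted p = 0.633). Alas2 was thus not called, and its value rested largely on that library. In the same library the 4 globins were highest, with 26486 CPM, and the sum of the other erythroid markers was highest, with 1223 CPM. The methods describe a lysis of red blood cells before BECs were isolated. The part of red cell RNA in the Alas2 value was not tested.

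Alas1 showed a smaller spread. It had 38.5, 44.3 and 47.9 CPM in females and 47.0, 52.9 and 43.0 CPM in males. The highest library was male replicate 2 and the lowest female replicate 1, and the sexes overlapped. The log2 fold change was 0.13 (95% confidence interval -0.16 to 0.42; edgeR, adjusted p = 0.787), so a difference of up to 1.33-fold in favour of males lay within the interval.

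The balance of both forms was compared as the ratio of Alas2 to Alas1 within each library, with 0.5 added to the CPM of each and no correction for gene length. The ratio was 2.11, 2.09 and 2.08 in females and 3.71, 2.16 and 2.26 in males. Every male value lay above every female value, although male replicates 2 and 3 did so by little and male replicate 1 by far. Females averaged a log2 ratio of 1.06 ± 0.0130 (SD, n = 3), and males one of 1.39 ± 0.433 (SD, n = 3). The difference was 0.33 (two-sided exact permutation test over 20 splits, p = 0.1, the smallest p that 3 against 3 can give), and it was 0.079 without male replicate 1.

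**Figure D1:**
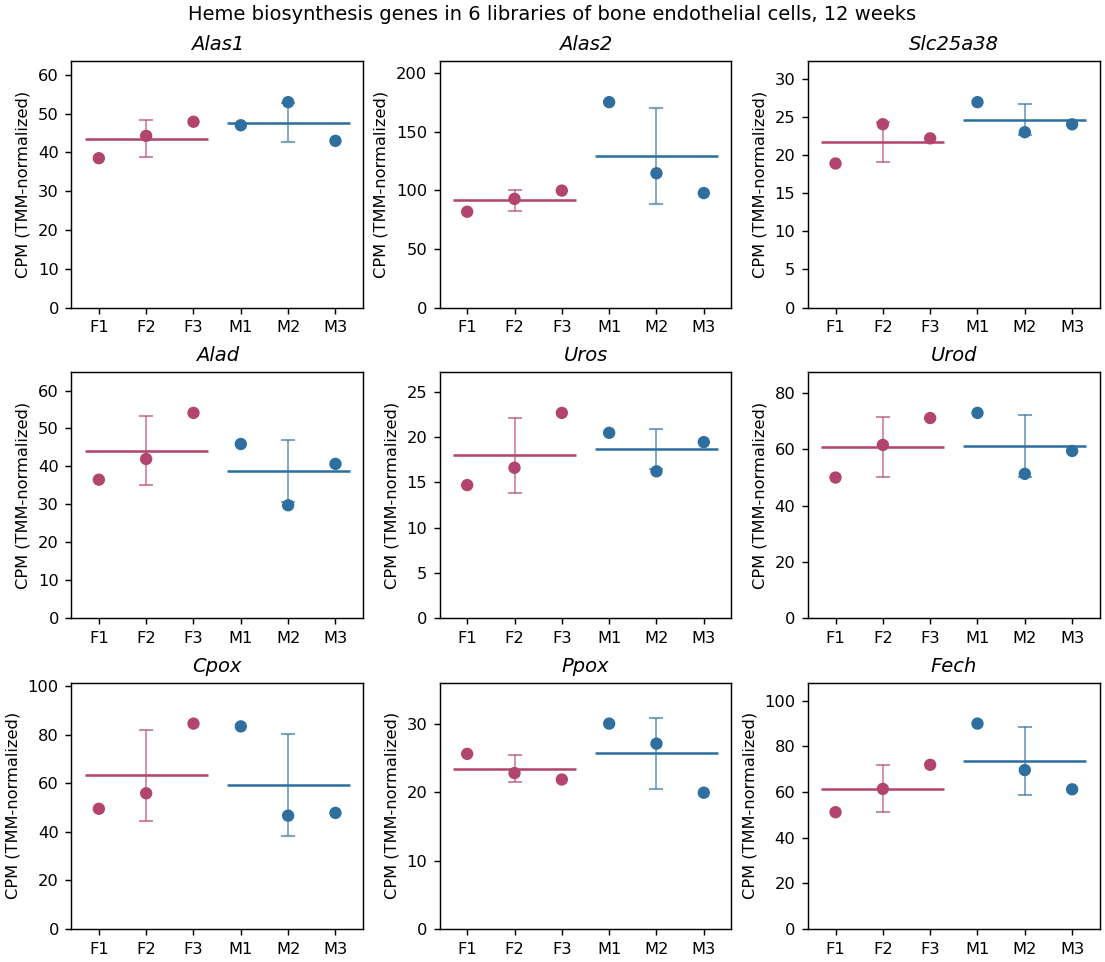
Level of each heme biosynthesis gene (TMM-normalized CPM, vertical axis) in the 3 female and 3 male libraries, with a point for each library, a line at the mean of each sex and bars of 1 SD. The sexes overlap for all 9 genes, and for Alas2 male replicate 1 lies apart at 175 CPM.

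Slc25a38 is the mitochondrial carrier of glycine, the amino acid that the first enzyme uses. The gene (chromosome 9, 119939387 to 119955157, plus strand of GRCm39) had 18.9, 24.0 and 22.2 CPM in females and 26.9, 23.0 and 24.0 CPM in males. Again female replicate 1 was lowest and male replicate 1 highest, and the middle libraries of the sexes were intermingled. The log2 fold change was 0.18 (95% confidence interval -0.13 to 0.49; edgeR, adjusted p = 0.712).

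The cytosolic steps are represented by Alad, which joins 5-aminolevulinate molecules into a pyrrole, Uros, which closes the ring of uroporphyrinogen III, and Urod, which trims its side chains. Alad (chromosome 4, 62423283 to 62438587, minus strand) had 36.5, 42.0 and 54.1 CPM in females and 45.9, 29.8 and 40.7 CPM in males (log2 -0.19, 95% confidence interval -0.60 to 0.22; edgeR, adjusted p = 0.787). Leaving out single libraries moved this value between -0.33 (without male replicate 1) and -0.018 (without female replicate 3). Uros (chromosome 7, 133285987 to 133311801, minus strand) had 14.7, 16.6 and 22.6 CPM in females and 20.4, 16.2 and 19.4 CPM in males. Urod (chromosome 4, 116844840 to 116851610, minus strand) had 49.9, 61.5 and 71.0 CPM in females and 72.9, 51.2 and 59.4 CPM in males. For all 3 genes the highest 2 libraries were female replicate 3 and male replicate 1, one of each sex, and the sexes overlapped. The fold was 1.04 for Uros (95% confidence interval 0.785 to 1.38) and 1.01 for Urod (0.781 to 1.29), with adjusted p of 0.947 and 0.993 in edgeR.

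The last steps return to the mitochondrion with Cpox, which makes protoporphyrinogen, Ppox, which oxidises it to protoporphyrin, and Fech, the ferrochelatase that inserts iron. Cpox (chromosome 16, 58490414 to 58537999, plus strand) had 49.5, 55.9 and 84.6 CPM in females and 83.5, 46.7 and 47.8 CPM in males. Female replicate 3 and male replicate 1 were thus far above the other 4 libraries, and the highest was 1.81 times the lowest. This spread within each sex left the widest interval of the set (log2 -0.09, 95% confidence interval -0.69 to 0.50; edgeR, adjusted p = 0.939). Ppox (chromosome 1, 171100969 to 171109385, minus strand) had 25.6, 22.8 and 21.9 CPM in females and 30.0, 27.1 and 19.9 CPM in males, with the highest and the lowest library both male (log2 0.13, 95% confidence interval -0.23 to 0.50; edgeR, adjusted p = 0.831). Fech, on chromosome 18, had 51.1, 61.3 and 71.9 CPM in females and 89.9, 69.6 and 61.2 CPM in males (log2 0.26, 95% confidence interval -0.11 to 0.63; edgeR, adjusted p = 0.655). Its male replicate 1 stood above all others, as for Alas2, while the remaining libraries of the sexes overlapped.

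Across the set, edgeR called 0 of 9 genes at its adjusted threshold of 0.05, where 0.0411% of all genes tested did, and DESeq2 called 0 of 9, where 1.99% were. At an unadjusted p under 0.05 in edgeR, 1 of 9 passed, Alas2, higher in males, against 9.79% of all genes in either direction, 5.03% higher and 4.76% lower in males. Alas2 did not pass with the replicate block (edgeR, unadjusted p = 0.0501), without female replicate 1 (unadjusted p = 0.0842), without female replicate 2 (unadjusted p = 0.0650) or without male replicate 1 (unadjusted p = 0.162), and 2 of 9 passed without male replicate 3. The sexes did not overlap for 0 of 9 genes, against 14.5% of all genes. The log2 fold change was positive for 7 of the 9 genes, with a median of 0.13, and for 9699 of all 19480 genes, with a median of -0.0012. This tally depended on single libraries. Uros and Urod turned negative without female replicate 1 (-0.062 and -0.11) and without male replicate 1 (-0.014 and -0.14). Cpox turned positive without female replicate 3 (0.17), male replicate 2 (0.050) or male replicate 3 (0.038).

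**Figure D2:**
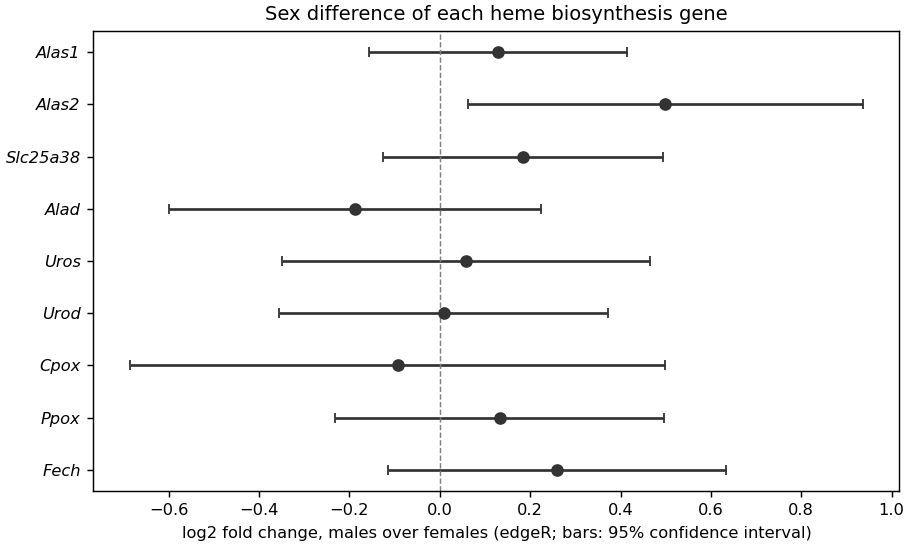
Log2 fold change of males over females for each gene (horizontal axis, edgeR), with points for the estimates, bars for the 95% confidence interval and a dashed line at no difference. The interval leaves out 0 for Alas2 alone, from 0.06 to 0.94, before adjustment over all genes.

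Levels were compared between genes as CPM per kilobase of the canonical transcript of GENCODE M39, averaged over the 6 libraries. Alas2 led with 54.2 CPM per kilobase (40.2 to 86.1 over libraries), against 13.4 (11.3 to 15.5) for Alas1. Next after Alas2 came Cpox with 18.4 (14.0 to 25.3), Urod with 16.0 (13.1 to 19.1), Alas1, Slc25a38 with 12.6 (10.2 to 14.6) and Fech with 10.4 (7.89 to 13.9). The lowest were Alad with 9.40 (6.75 to 12.3), Ppox with 8.69 (7.05 to 10.6) and Uros with 4.94 (3.95 to 6.10). The libraries of neighbours in this order overlapped, except that Alas2 lay above Cpox and Uros below Ppox in all libraries. The order of the middle genes depends on the length used: with all annotated exons merged, Alas2 (41.1) and Uros (2.49) kept the ends, Urod (10.3) stood above Cpox (8.89) and Alas1 (4.62) came in the seventh place. Exons of other genes overlap Ppox on the opposite strand over 3277 bases (B4galt3, 34.2 CPM) and Urod over 3440 bases (Zswim5, 0.267 CPM). The strand setting of the counting is not given in the sources used here. The values of Ppox and Urod could therefore hold reads of a neighbour or lack reads of the shared bases.

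**Figure D3:**
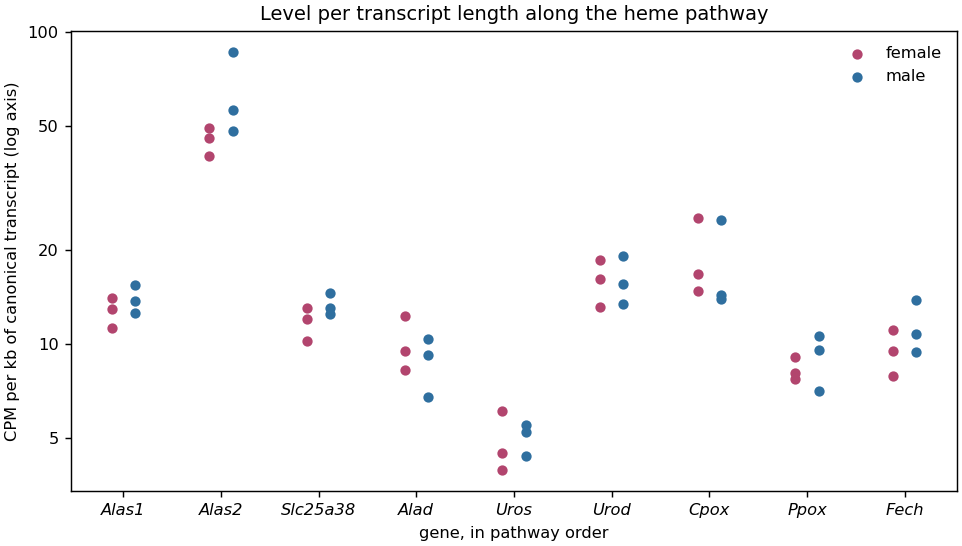
Level per kilobase of canonical transcript (CPM per kilobase, vertical log axis) of the 9 genes in pathway order, with a point for each female and male library. Alas2 lies above all other genes, at 40.2 to 86.1, and Uros lowest, at 3.95 to 6.10.

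The order of the libraries was shared by several of the genes. An erythroid score, the mean log2 CPM of 15 erythroid markers other than globins, was 4.96, 5.02 and 5.57 in females and 5.79, 5.01 and 4.88 in males, highest in male replicate 1 and female replicate 3. The same pair of libraries was highest for 5 of the 9 genes (Alad, Uros, Urod, Cpox and Fech) and for 758 of the 19480 genes tested (3.89%). That pair was also highest for 13 of the 15 markers, but the score is their mean, so this agreement was partly built in. Female replicate 1 was lowest for 6 of the 9 genes, against 13.5% of all genes. It was lowest for 3 of the 15 markers, and the score itself was lowest in male replicate 3. The sum of the 4 globins, which the score leaves out, was lowest in female replicate 1. That sum was highest in male replicates 1 and 3 (26486 and 19051 CPM). The ratio of the highest to the lowest library had a median of 1.54 over the 9 genes and 1.63 over all genes, and ran from 1.38 for Alas1 to 2.14 for Alas2.

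The relation of each gene to the erythroid score was computed over the 6 libraries, 9 relations in all. It was highest for Cpox, with Pearson's r of 0.960 and Spearman's rho of 0.771 (exact permutation p of 0.0236 for r, adjusted 0.106 over the 9 relations, and 0.103 for rho), and for Fech, with r of 0.842 and rho of 0.886 (exact permutation p of 0.0125, adjusted 0.106, and 0.0333). Urod had r of 0.839 and rho of 0.829 and Alas2 r of 0.742 and rho of 0.600 (exact permutation, adjusted p = 0.156 for both r). Uros, Alad, Slc25a38, Ppox and Alas1 had r of 0.713, 0.671, 0.479, 0.444 and 0.353. None had an adjusted p under 0.05. When the 2 libraries farthest from the median score, male replicate 1 and female replicate 3, were left out, r was 0.475 for Cpox, 0.297 for Fech, -0.119 for Urod and 0.203 for Alas2. For Alas1 and Ppox it was 0.445 and 0.673. The 4 libraries that remained spanned scores of 4.88 to 5.02 only, too narrow a range to test a relation within them. Within a sex there were 3 libraries, too few for a value. With globins in the score and all 6 libraries, r was 0.919 for Cpox, 0.914 for Fech, 0.853 for Urod and 0.832 for Alas2. It was 0.745 for Uros, 0.622 for Alad, 0.608 for Slc25a38, 0.448 for Ppox and 0.426 for Alas1.

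**Figure D4:**
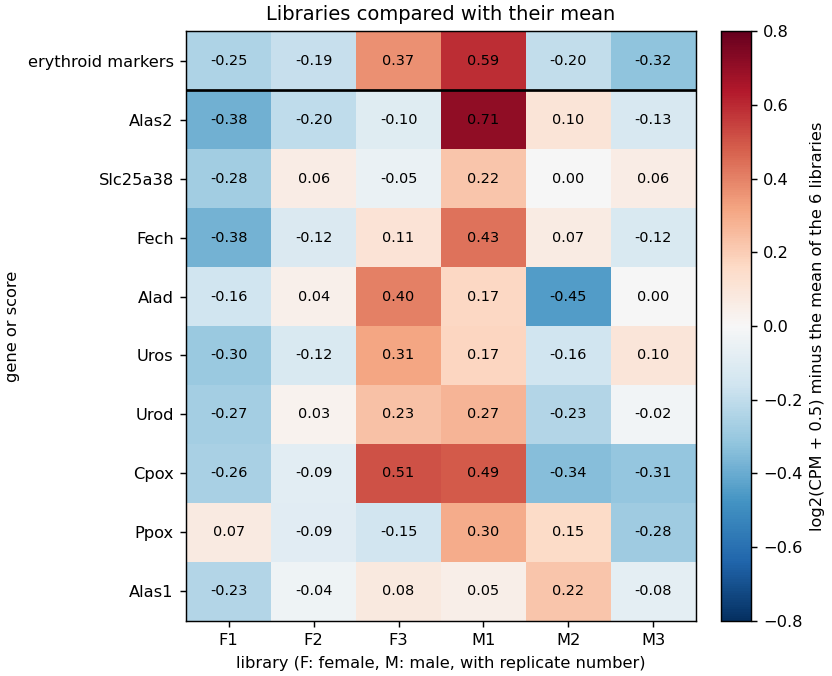
Deviation of each gene (rows) in each library (columns) from its mean over the 6 libraries, in log2 units, with the erythroid score for comparison. Female replicate 3 and male replicate 1 are highest for Alad, Uros, Urod, Cpox and Fech, and female replicate 1 is lowest for 6 of the 9 genes.

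The genes whose log2 CPM was most like that of Alas2 over the 6 libraries were picked from 11690 genes with a mean of at least 5 CPM, as a description of these libraries. They were Prxl2a (Pearson's r = 0.996), Trim10 (0.990), Prkd3 (0.981), Frat2 (0.979), Dek (0.973), Gm28047 (0.973), Acsl1 (0.970) and Cdr2 (0.967). Without male replicate 1, r of these genes lay between 0.786 (Cdr2) and 0.980 (Prxl2a). Trim10 is one of the 15 erythroid markers. For Alas1 the most alike were Xlr4c (0.981), Kctd11 (0.979), St3gal4 (0.975), Ube3a (0.972) and Naip2 (0.967). The 6 libraries share their depth and composition between all these genes, and no p is given.

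The genes around the pathway were described in 4 lists of 35 genes in all. At an adjusted p under 0.05 in edgeR, 0 of 35 passed, and at an unadjusted p under 0.05, 2 were higher and 4 lower in males, 6 in all, against 9.79% of all genes tested. The count of 6 was 2 without male replicate 2 and 10 without male replicate 3, and 4 without female replicate 1 or 3 or with total counts alone. DESeq2 called 1 higher (Nfe2) and 1 lower (Hmox1), against 1.99% of all genes. With the replicate block, edgeR called 1 of the 35 at the adjusted threshold, where it called 428 of the 19480 genes tested. At an unadjusted p under 0.05, 7 of the 35 passed with the block. The median log2 fold change over the 35 genes was -0.082, and the sexes did not overlap for 7 of them, against 14.5% of all genes.

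Among 11 genes of mitochondrial import and iron-sulfur supply, 0 passed the test in edgeR, adjusted or at an unadjusted p under 0.05, and 0 passed in DESeq2. Their median log2 fold change was -0.067, with 3 positive and 8 negative values. Slc25a37, mitoferrin-1, the iron importer of red cell mitochondria, had 111, 84.9 and 84.9 CPM in females and 155, 122 and 68.7 CPM in males, and the sexes overlapped.

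Among 11 genes of heme export, use and breakdown, 2 passed the unadjusted test, both lower in males, against 4.76% of all genes in that direction, and the sexes did not overlap for these 2, against 14.5% of all genes in either direction. Hmox1, the inducible heme oxygenase that opens the heme ring, had 1215, 1883 and 1523 CPM in females and 894, 622 and 1127 CPM in males. All 3 male libraries lay below all 3 female libraries (0.572-fold, 95% confidence interval 0.400 to 0.819; edgeR, unadjusted p = 0.00599, adjusted p = 0.284; DESeq2, adjusted p = 0.0184). Slc48a1, a heme transporter of endosomes, had 205, 266 and 232 CPM in females and 172, 141 and 198 CPM in males, also without overlap (log2 -0.46, 95% confidence interval -0.80 to -0.11; edgeR, unadjusted p = 0.0143, adjusted p = 0.360). The sum over 10 macrophage markers, cells that break down heme, was 5915 to 6146 CPM in females and 3784 to 5027 CPM in males. Its part in these values was not tested.

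Among 6 sensing regulators, 1 was higher and 1 lower in males at an unadjusted p under 0.05 in edgeR, against 5.03% and 4.76% of all genes. Bach1, a heme-binding repressor, had 43.8, 48.7 and 45.9 CPM in females and 56.3, 59.6 and 51.6 CPM in males (log2 0.28; edgeR, unadjusted p = 0.0317, adjusted p = 0.450). Aco1, iron regulatory protein 1, which is known to govern the translation of Alas2 transcripts, had 42.8, 43.7 and 43.2 CPM in females and 36.9, 29.0 and 35.7 CPM in males (log2 -0.35; edgeR, unadjusted p = 0.0168, adjusted p = 0.380). The sexes did not overlap for these 2 genes, against 14.5% of all genes.

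Among 7 erythroid regulators, 1 was likewise higher and 1 lower in males, and the sexes did not overlap for 1, against the same shares of all genes (5.03%, 4.76% and 14.5%). The transcription factor gene Nfe2, known in red cells, megakaryocytes and neutrophils, had 81.5, 80.9 and 82.0 CPM in females and 111, 136 and 121 CPM in males. The sexes did not overlap (log2 0.59, 95% confidence interval 0.34 to 0.84; edgeR, unadjusted p = 3.88e-04, adjusted p = 0.0974; DESeq2, adjusted p = 0.00197). The sum of the neutrophil markers was also higher in every male library than in any female one, as given above. S100a8 and S100a9 had the highest means of that list, 7572 and 11180 CPM. The sexes did not overlap for 11 of its 14 genes, against 14.5% of all genes. They overlapped for Mpo (log2 -0.61), Elane (0.17) and Prtn3 (0.19). The sum of 6 megakaryocyte markers was 50.4 to 194 CPM in females and 37.3 to 99.9 CPM in males. All 6 of their fold changes were negative, and none passed the unadjusted test. The part of either cell type was not tested. Epor, the erythropoietin receptor, was the other to pass the unadjusted test (log2 -0.46; edgeR, unadjusted p = 0.0356, adjusted p = 0.464). Gata1 (12.3, 12.8 and 16.2 CPM in females and 16.7, 8.02 and 10.1 CPM in males) and Klf1 (12.9, 19.0 and 27.0 CPM in females and 29.3, 13.0 and 17.3 CPM in males) overlapped between the sexes and had their highest library in male replicate 1.

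Of 20 erythroid markers listed, 19 were used here. None passed the adjusted test in edgeR or DESeq2, and 4 were higher in males at an unadjusted p under 0.05 in edgeR, all of them globins, against 5.03% of all genes. The count in either direction was 0 without female replicate 1 or without female replicate 2, 1 without male replicate 1 and 7 without male replicate 3. Of these, Hbb-bs had 3100, 3954 and 4760 CPM in females and 6921, 4915 and 5509 CPM in males (log2 0.55; edgeR, adjusted p = 0.415). Hba-a1 and Hba-a2 are near-identical copies between which reads may have been divided. The median log2 fold change over the 19 markers was 0.15.

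**Figure D5:**
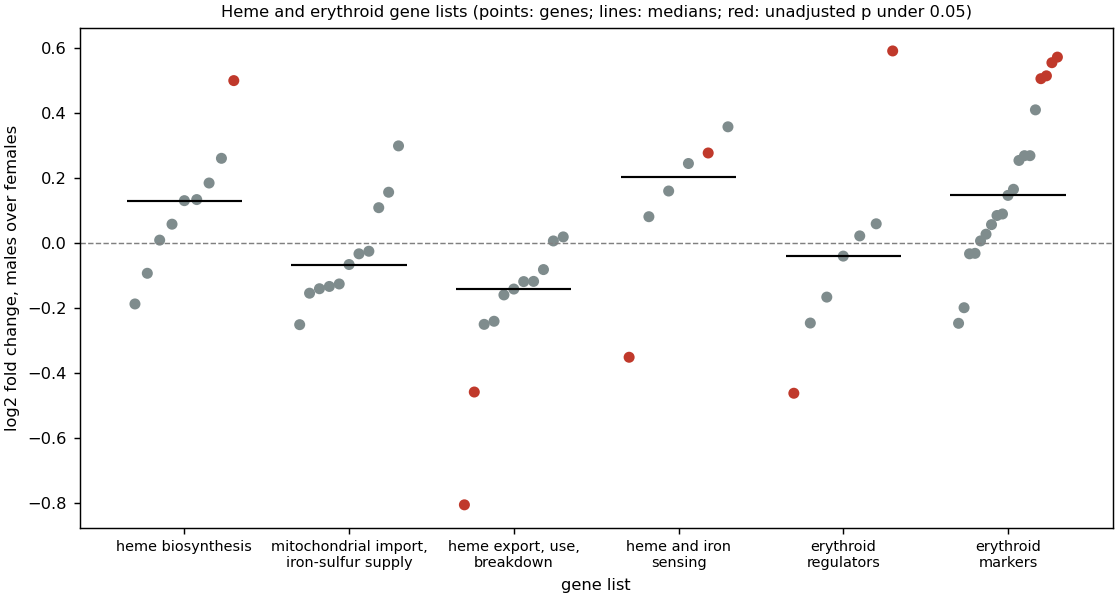
Log2 fold change of males over females (vertical axis, edgeR) of each gene in the heme biosynthesis set, the 4 neighbouring lists and the erythroid markers, with a point for each gene, red where the unadjusted p was under 0.05, and a line at the median of each list. The median is 0.13 for heme biosynthesis and 0.15 for the erythroid markers. No gene shown passed the adjusted test in the main edgeR fit, while DESeq2 called Nfe2 and Hmox1.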

How the data were processed

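RNA from BECs was measured in 6 libraries, 3 labelled female and 3 labelled male. The authors deposited whole-number counts per gene and library, not normalized and not pooled. The paper's methods and the labels differ: the paper gives STAR and GRCm39 with a total RNA kit, and the submitters' processing notes give TopHat2 2.0.11, featureCounts, mm9 and NCBIM37, with polyA RNA and a directional kit. Which holds for the counts could not be settled, and the annotation release and strand setting are not given in the sources used here. Wrong assignment between overlapping genes could therefore move a count.

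Symbols and positions came from GENCODE M39 on GRCm39, matching 31073 of 37991 identifiers (96.2% of counts). Males were compared with females in edgeR 4.0.16 (R 4.3.3; TMM, default filter by sex, robust quasi-likelihood fit, Benjamini-Hochberg adjustment over 19480 genes, threshold 0.05). DESeq2 1.42.0 was the alternative and was the tool of the paper; both scripts were tested on simulated data. Log2 levels used a pseudocount of 0.5 CPM. Standard errors come from the quasi-likelihood F. The counts of a member lay between 798 and 9242 per library, and the counting error of the lowest is 3.54%. Intervals of counts and floors cover counting error only, because amplified reads that carry no molecular identifier do not count molecules. No 2 libraries agreed within sampling noise (chi-square per degree of freedom of at least 31.7 over 15 pairs).

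Every member was named, as were the genes of the lists around the pathway, the markers the text needs and the genes most like Alas2 (8) and Alas1 (5). The members and lists were chosen with earlier results of these data known. Some genes of and around the pathway are not reported here. Alternatives were other normalizations and filters, DESeq2, the replicate block, and leaving out each library. A further 3, chosen after seeing the data, were globins in the erythroid score, the 2 farthest libraries left out, and merged exon lengths.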

Additional observations from a re-analysis of the deposited data

How the results depend on the processing

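No heme biosynthesis gene reached an adjusted p under 0.05 in any of the 14 alternatives, and the lowest was 0.131, for Alas2 in edgeR without male replicate 3. Of 126 recomputed fold changes of the 9 genes, 119 kept their direction and side of the threshold and 7 turned direction, all of them with a library left out. Leaving out a single library, the log2 fold changes ranged from -0.062 to 0.26 for Uros, turning in direction at -0.062 and -0.014, from -0.14 to 0.13 for Urod, turning at -0.11 and -0.14, and from -0.42 to 0.17 for Cpox, turning at 0.17, 0.050 and 0.038. It ranged from 0.088 (without male replicate 1) to 0.39 (without female replicate 3) for Fech, which had an unadjusted p of 0.0436 in edgeR without male replicate 3, from 0.0035 (without male replicate 1) to 0.28 for Ppox, from 0.047 (without male replicate 2) to 0.20 for Alas1, from 0.10 to 0.26 for Slc25a38 and from 0.21 to 0.66 for Alas2. The male minus female log2 ratio of Alas2 to Alas1 ranged from 0.079 without male replicate 1 to 0.47. Leaving out the 2 libraries farthest from the median erythroid score, an alternative chosen after seeing the data, turned r for Alad (-0.336), Uros (-0.602) and Urod (-0.119).

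The number of all genes under the adjusted threshold was 8 in edgeR as reported, 14 with total counts alone, 98 with no filter, 354 with DESeq2 and 428 with the replicate block, and 5 (without female replicate 2) to 96 (without male replicate 3) with a library left out. The causes were not tested. Among the genes around the pathway, DESeq2 called 2 and the replicate block 1, against 0. Same-numbered libraries deviated together with correlations of 0.248, 0.0613 and 0.361, and each library correlated best with its own number except male replicate 2. The labels state no pairing, so the main test used none. Whether the numbers mark a pairing could not be settled. Depth limits none of the 9 genes at these counts; the widest interval, with 3 libraries per sex, ran from -0.69 to 0.50 in log2 units (Cpox).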
